A study of Caenorhabditis elegans with 6 samples.

Results

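Of the 46739 rows of genes in the expression table, 4 were selected by symbol: *hacd-1*, B0272.3, B0303.3 and *kat-1*, which encode enzymes assigned to the last steps of mitochondrial β-oxidation. All 4 passed the filter on low values and were tested. RNA came from whole *nhr-49(nr2041)* mutants (strain PMD122) and whole wild-type animals (strain PMD121), with 3 biological replicates of each genotype. Both strains descend from a single cross of N2 with an *nhr-49(nr2041)* strain and were kept as F2 homozygotes, so each genotype is 1 strain. *nr2041* is a deletion allele of *nhr-49*, a nuclear hormone receptor that controls genes of fat use, and it is present in every tissue. The paper allows that this allele may not remove all function of the gene. Both genotypes were raised at 20°C on HT115 bacteria carrying the empty RNAi vector throughout development and were collected as late L4 larvae.

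β-oxidation takes fatty acids apart inside mitochondria in a repeating cycle. An acyl-CoA dehydrogenase introduces a double bond, an enoyl-CoA hydratase adds water, a 3-hydroxyacyl-CoA dehydrogenase oxidizes the hydroxyl group with NAD+, and a thiolase releases acetyl-CoA and a shortened acyl-CoA. *hacd-1* and B0272.3 encode 3-hydroxyacyl-CoA dehydrogenases of the kind that handles short and medium chains in mammals. B0303.3, named *hadb-1* in current annotation, is the homolog of the thiolase subunit of the mammalian mitochondrial trifunctional protein, an assembly for long chains. *kat-1* encodes a mitochondrial acetyl-CoA acetyltransferase, a thiolase for the shortest substrates, and its loss promotes fat storage in *C. elegans* with a defective *tub-1* gene.

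The 4 genes lie on 4 chromosomes of genome build WBcel235. *hacd-1* (WBGene00019978) lies on the plus strand of chromosome V from 1460369 to 1461613 and has 4 exons. B0272.3 (WBGene00007129) lies on the plus strand of chromosome X from 9431432 to 9432745, also with 4 exons. B0303.3 (WBGene00015125) lies on the minus strand of chromosome III from 8686327 to 8688488, with 2 annotated transcripts and up to 5 exons. *kat-1* (WBGene00002183) lies on the plus strand of chromosome II from 7073814 to 7075511 and has 6 exons.

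Values are RPKM, reads scaled to gene length and to the library total, so that levels of different genes can be set side by side. The values imply library totals of 24523159 to 30183162 reads. The *nhr-49* transcript itself was at 22.1 to 26.1 RPKM in *nhr-49(nr2041)* mutants and at 37.8 to 40.8 RPKM in wild-type animals. Reads can still come from what the deletion leaves of the gene, so its transcript need not be absent. *nhr-49(nr2041)* replicate 1 and wild-type replicate 2 were set off from the rest on a principal component that held 22.4% of the variance. Fold changes are differences in mean log2(RPKM + 1), tested with limma over 13965 genes with Benjamini-Hochberg adjustment. A gene was called changed where that adjusted p was under 0.05. By this rule 4.13% of all genes tested changed, 3.32% being higher in the mutants and 0.816% lower. The median log2 fold change of all genes was 0.10, against -0.04 after quantile normalization and -0.02 with library medians set equal, so the members' changes are also given after this median is subtracted. Of 68 marker genes of 7 tissues, none was at 0 in all 6 libraries, and 67 were tested. The sperm marker *msp-31*, with 1 read in the mutants and 3 reads in wild-type animals, was too low to be tested. Of the 67, 1 changed, the intestinal metallothionein gene *mtl-2*, at 48.8 ± 6.20 RPKM in mutants and 22.2 ± 0.673 RPKM in wild-type animals (SD, n = 3 each).

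The *nhr-49(nr2041)* mutation was accompanied by opposite changes in the 2 dehydrogenase genes and by no detected change in the 2 thiolase genes. *hacd-1* rose and B0272.3 fell, while B0303.3 and *kat-1* did not pass the test. Thus 2 of 4 members changed, against 4.13% of all genes tested, though the call for B0272.3 was lost in 7 of 15 alternative settings. The 3 mutant libraries did not overlap the 3 wild-type libraries for the same 2 members, a separation shown by 21.4% of all genes tested. The RNA was from whole animals, so a change in the number of cells that express a gene and a change in RNA per cell cannot be told apart.

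**Figure D1:**
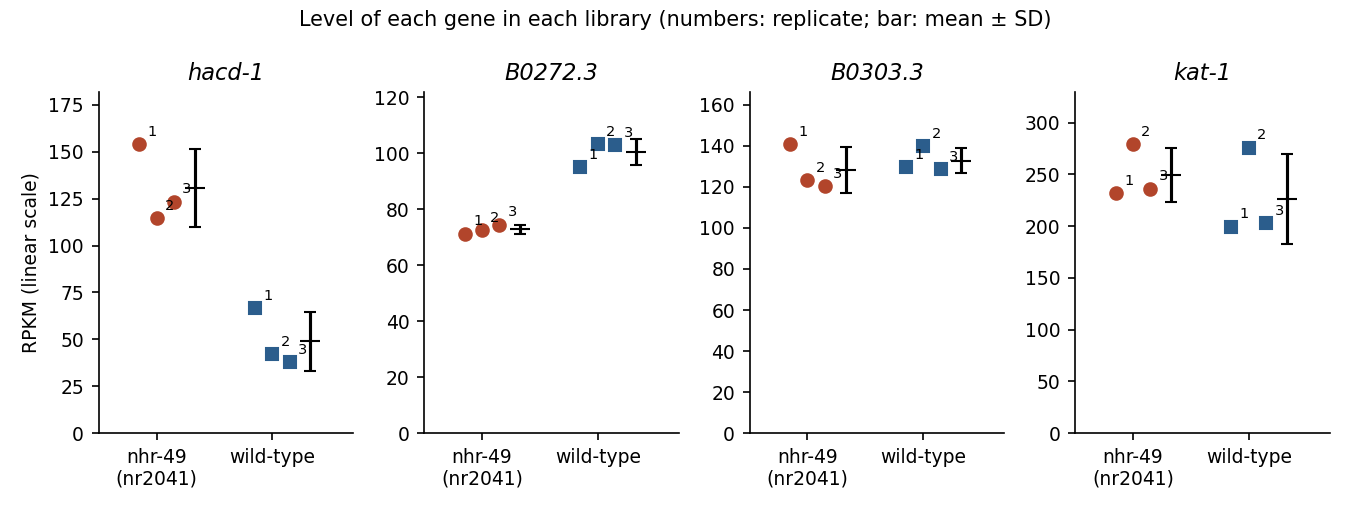
Level in RPKM (vertical axes, linear and from 0) of *hacd-1*, B0272.3, B0303.3 and *kat-1* in each *nhr-49(nr2041)* library (circles) and each wild-type library (squares), numbered by replicate, with the mean ± SD of each genotype (n = 3) beside them. The mutant and wild-type libraries separate for *hacd-1*, higher in mutants, and for B0272.3, lower in mutants, and overlap for the other two genes.

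*hacd-1* had 154, 115 and 123 RPKM in mutant replicates 1 to 3, against 66.7, 42.3 and 37.8 RPKM in wild-type replicates 1 to 3. Every mutant library was above every wild-type library, and replicate 1 was the highest of each genotype. The means were 131 ± 20.7 RPKM in the mutants and 48.9 ± 15.5 RPKM in wild-type animals (SD, n = 3 each), a ratio of 2.67. On the log2 scale this was a fold change of 1.43 (SE 0.22, 95% confidence interval 0.91 to 1.95, limma adjusted p = 0.010), or 1.33 above the median of all genes. The call held in all 15 alternative settings tried, with adjusted p from 0.0026 to 0.044. Without both libraries that stood apart, the log2 fold change was 1.23 (limma adjusted p = 0.033). In rank, *hacd-1* exceeded between 92.9% and 94.1% of the genes tested in mutant libraries and between 80.9% and 88.9% in wild-type libraries. A larger rise was seen for 273 of the 13965 genes tested.

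B0272.3 was at 71.3, 72.5 and 74.5 RPKM in the mutants and at 95.0, 103 and 103 RPKM in wild-type animals. The libraries of each genotype lay close together, and no mutant library reached the lowest wild-type value. The means were 72.8 ± 1.64 RPKM in the mutants and 100 ± 4.67 RPKM in wild-type animals (SD, n = 3 each), or 27.5% less in the mutants. The fold change was -0.46 in log2 units (SE 0.10, 95% confidence interval -0.68 to -0.23, limma adjusted p = 0.041), or -0.56 relative to the median of all genes. With quantile normalization it was -0.56 (limma adjusted p = 0.022). An additional threshold of 0.5 on the absolute log2 fold change, which the study applied, would leave B0272.3 out on the scale used here and keep it after quantile normalization. The call is close to its threshold. It was lost when any library other than *nhr-49(nr2041)* replicate 1 was left out, with limma adjusted p of 0.173 without mutant replicate 2, 0.109 without mutant replicate 3, and 0.137, 0.121 and 0.260 without wild-type replicates 1, 2 and 3. Without both libraries that stood apart it was kept, at -0.42 in log2 units (limma adjusted p = 0.011).

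Replicate spread differed widely between the 2 dehydrogenase genes. For B0272.3 the SD was 2.25% of the mean in mutants and 4.65% in wild-type animals, against counting errors of 2.33% in mutants and 1.84% in wild-type animals at the lowest read count of each genotype. For *hacd-1* the SD was 15.8% of the mean in mutants and 31.7% in wild-type animals, against counting errors of 1.78% and 3.08%. The highest wild-type library held 1.76 times the *hacd-1* RPKM of the lowest, and for B0272.3 this ratio was 1.09. Reads recovered from the RPKM ranged from 1052 to 3866 per library for *hacd-1* and from 1844 to 3270 for B0272.3, so counting error stayed at or below 3.08% for both.

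Since RPKM is per length, the 2 dehydrogenase genes can be compared within each library. The ratio of *hacd-1* to B0272.3 was 2.16, 1.58 and 1.66 in the mutants and 0.702, 0.409 and 0.368 in wild-type animals. *hacd-1* was the more abundant transcript in every mutant library and the less abundant one in every wild-type library. The within-library log2 difference averaged 0.83 ± 0.24 in mutants and -1.08 ± 0.50 in wild-type animals (SD, n = 3 each), a shift of 1.92 (p = 0.10 by a two-sided exact permutation test, the smallest that 3 against 3 libraries can give, and 0.20 adjusted over the 4 pairs compared). *hacd-1* supplied 68.4%, 61.3% and 62.4% of the summed RPKM of both genes in the mutants and 41.2%, 29.0% and 26.9% in wild-type animals. The sum itself was 225, 187 and 198 RPKM in the mutants and 162, 146 and 141 RPKM in wild-type animals, so the mean sum in the mutants was 1.36 times that in wild-type animals. The fall in B0272.3 was thus smaller in RPKM than the gain in *hacd-1* in these libraries.

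**Figure D2:**
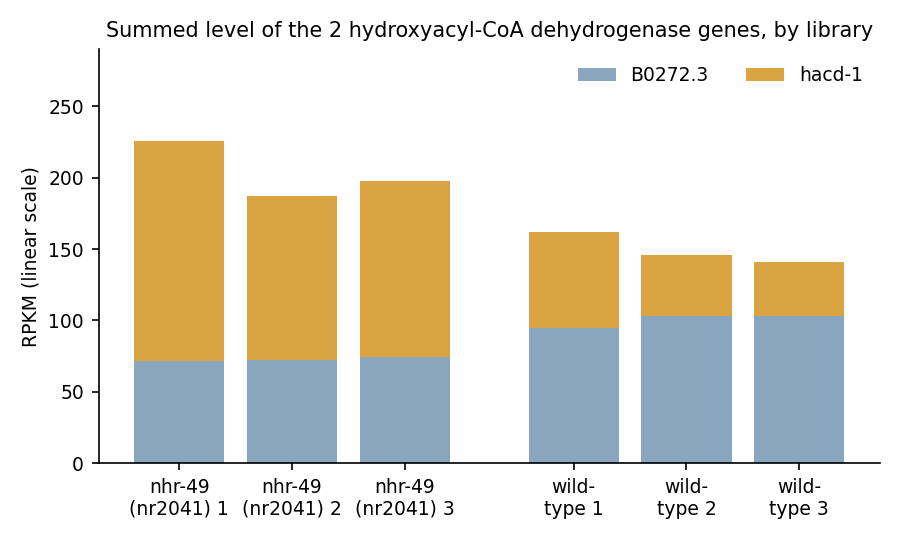
Stacked RPKM (vertical axis, linear and from 0) of B0272.3 (lower part of each bar) and *hacd-1* (upper part) in the 3 *nhr-49(nr2041)* libraries (left) and the 3 wild-type libraries (right). *hacd-1* makes up 61.3% to 68.4% of each mutant bar and 26.9% to 41.2% of each wild-type bar.

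B0303.3 was at 141, 123 and 120 RPKM in *nhr-49(nr2041)* mutants and at 130, 140 and 129 RPKM in wild-type animals. The groups overlapped, with the highest value in mutant replicate 1 and the lowest in mutant replicate 3. Its fold change in log2 units was -0.05 (SE 0.11, limma adjusted p = 0.865), or -0.16 relative to the median of all genes. Its 95% confidence interval of -0.30 to 0.20 corresponds to 0.811 to 1.15 times the wild-type level on the log2(RPKM + 1) scale. The 3′ end of B0303.3 overlaps by 82 bases that of *anmt-1* on the opposite strand (chromosome III, 8684808 to 8686408), and whether strand was used in counting is not given in the sources used here. *anmt-1* was far lower, at 11.2 ± 2.71 RPKM in mutants and 10.8 ± 0.423 RPKM in wild-type animals (SD, n = 3 each).

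*kat-1* was at 232, 279 and 236 RPKM in the mutants and at 199, 276 and 203 RPKM in wild-type animals. Replicate 2 was the highest library of each genotype, and wild-type replicate 2 lay above mutant replicates 1 and 3. Its fold change was 0.15 in log2 units (SE 0.16, 95% confidence interval -0.21 to 0.51, limma adjusted p = 0.728), or 0.05 above the median of all genes. Without wild-type replicate 2, both remaining wild-type libraries were below all 3 mutant libraries, and the log2 fold change was 0.30 (limma adjusted p = 0.342). Without wild-type replicate 2 and mutant replicate 1 it was 0.35 (limma adjusted p = 0.052). A change in *kat-1* of up to 1.43 times the wild-type level lies within the interval from all 6 libraries.

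The order of the 4 genes by level differed between the genotypes. In the mutants the order was *kat-1* (249 ± 26.2 RPKM), *hacd-1* (131 ± 20.7), B0303.3 (128 ± 11.1) and B0272.3 (72.8 ± 1.64), and *hacd-1* and B0303.3 overlapped between libraries while the other neighbours did not. In wild-type animals it was *kat-1* (226 ± 43.2 RPKM), B0303.3 (133 ± 6.14), B0272.3 (100 ± 4.67) and *hacd-1* (48.9 ± 15.5), and no 2 neighbours overlapped (SD, n = 3 per genotype). *hacd-1* was thus the lowest of the 4 genes in wild-type animals and not the lowest in the mutants. Within libraries, *kat-1* stood at 1.65, 2.27 and 1.96 times B0303.3 in the mutants and at 1.54, 1.98 and 1.58 times in wild-type animals. This thiolase ratio overlapped between genotypes (log2 difference 0.20, p = 0.30 by a two-sided exact permutation test, 0.40 adjusted over the 4 pairs).

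The trifunctional protein pairs the thiolase subunit with a subunit that carries enoyl-CoA hydratase and long-chain hydroxyacyl-CoA dehydrogenase activities, for which *C. elegans* has 2 homologs, *ech-1.1* and *ech-1.2*. *ech-1.2* was at 152, 151 and 153 RPKM in mutants and at 146, 153 and 155 RPKM in wild-type animals. Its ratio to B0303.3 was 1.081, 1.225 and 1.275 in mutants and 1.127, 1.093 and 1.202 in wild-type animals (p = 0.50 by a two-sided exact permutation test, 0.50 adjusted over the 4 pairs). Both overlapped between genotypes. *ech-1.1* fell to 0.517, 1.01 and 1.11 RPKM in the mutants, against 6.88, 7.27 and 9.38 RPKM in wild-type animals (log2 fold change -2.24, SE 0.20, limma adjusted p = 4.87e-04). Its within-library log2 ratio to B0303.3 differed by -3.17 between mutants and wild-type animals (p = 0.10 by a two-sided exact permutation test, the smallest possible, 0.20 adjusted over the 4 pairs). *ech-1.1* supplied 0.339% to 0.717% of the summed RPKM of these 2 homologs in mutants and 4.49% to 5.72% in wild-type animals. The sum was 152 to 155 RPKM in mutants and 153 to 164 RPKM in wild-type animals.

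Among 7 relatives that act at the last steps, both genes of peroxisomal β-oxidation fell. *daf-22*, the thiolase of peroxisomal chain shortening and ascaroside synthesis, was at 39.5, 48.5 and 42.3 RPKM in mutants and at 109, 137 and 122 RPKM in wild-type animals (log2 fold change -1.47, SE 0.13, limma adjusted p = 4.62e-04). *dhs-28*, the hydroxyacyl-CoA dehydrogenase of the same peroxisomal pathway, was at 138, 128 and 121 RPKM in mutants and at 199, 240 and 212 RPKM in wild-type animals (log2 fold change -0.74, SE 0.11, limma adjusted p = 0.0092). The call for *dhs-28* was lost without mutant replicate 2 (limma adjusted p = 0.056) and without wild-type replicate 3 (limma adjusted p = 0.058). Without both libraries that stood apart it was kept (limma adjusted p = 4.54e-04). Mutant and wild-type libraries did not overlap for either gene.

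Of the 5 other relatives tested, 0 passed limma's test. Without adjustment, 0 had a p under 0.05, and limma voom on recovered reads gave 0. F54C8.1, a further member of the hydroxyacyl-CoA dehydrogenase family, was at 9.25, 7.73 and 9.18 RPKM in mutants and at 10.7, 4.53 and 9.82 RPKM in wild-type animals. *ard-1*, the homolog of a short-chain-type hydroxyacyl-CoA dehydrogenase of mammalian mitochondria, averaged 212 ± 19.5 RPKM in mutants and 202 ± 5.53 RPKM in wild-type animals. *acaa-2*, the homolog of a mammalian mitochondrial thiolase, averaged 254 ± 13.2 RPKM in mutants and 248 ± 37.0 RPKM in wild-type animals (SD, n = 3 each). The thiolase-family genes T02G5.7 and T02G5.4 averaged 183 ± 24.8 and 5.69 ± 1.83 RPKM in mutants, against 174 ± 14.2 and 6.07 ± 1.61 RPKM in wild-type animals. The log2 fold changes of these 5 genes ran from -0.09 to 0.13, and all 5 intervals included 0.

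**Figure D3:**
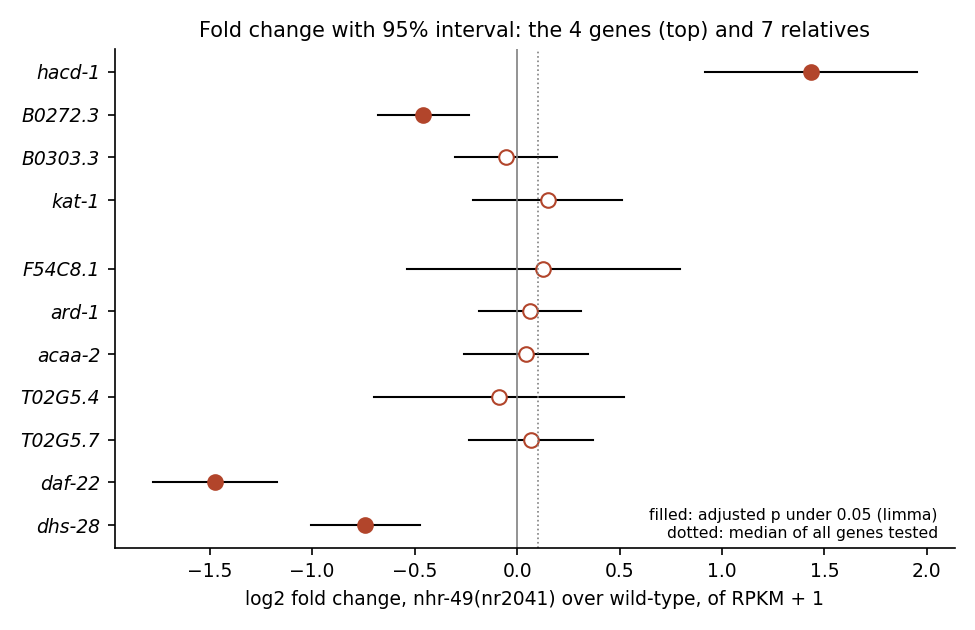
Log2 fold change of RPKM + 1 in *nhr-49(nr2041)* mutants over wild-type animals (horizontal axis) with its 95% confidence interval for the 4 genes and 7 relatives of the last steps, filled where the limma adjusted p is under 0.05, with a dotted line at the median of all genes tested. *hacd-1* alone lies to the right of its neighbours at 1.43, and B0272.3, *dhs-28* and *daf-22* lie to the left at -0.46, -0.74 and -1.47.

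Earlier steps of the pathway were taken from lists of 40 genes, these 7 relatives included, of which 39 were tested. Of the 39, 3 rose and 5 fell, or 20.5% against 4.13% of all genes tested, and their median log2 fold change was 0.04 against 0.10 for all genes. The lists were drawn up with earlier results of these data known, so these shares are a description. 1 listed gene, *cpt-3*, was too low to be tested. In fatty acid activation and carnitine transfer, *acs-2*, an acyl-CoA synthetase gene, was at 0.255, 0.341 and 0.0492 RPKM in mutants and at 31.1, 86.7 and 32.8 RPKM in wild-type animals (limma adjusted p = 1.68e-04). The carnitine palmitoyltransferase family gene *cpt-5* was at 0, 0 and 0.0148 RPKM in mutants and at 12.2, 13.7 and 26.3 RPKM in wild-type animals (limma adjusted p = 1.19e-04). The mutants had 1 read of *cpt-5* in all, and no fold is given. Its relative *cpt-4* was at 34.9, 37.7 and 42.4 RPKM in mutants and at 10.97, 17.31 and 20.15 RPKM in wild-type animals (log2 fold change 1.23, limma adjusted p = 0.017). The call for *cpt-4* was lost without mutant replicate 2 or 3 (limma adjusted p = 0.079 and 0.070).

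At the dehydrogenase step before the 4 genes, 0 of 13 *acdh* genes passed limma's test, with log2 fold changes from -0.38 to 0.52. The count was 3 at an unadjusted p under 0.05, and limma voom on recovered reads gave 0. The 3 genes for electron transfer from these enzymes gave 0 by limma, 0 at an unadjusted p under 0.05 and 0 by voom. At the hydratase step, *ech-7* was at 172, 153 and 153 RPKM in mutants and at 78.1, 96.1 and 79.1 RPKM in wild-type animals (log2 fold change 0.91, limma adjusted p = 0.0041). *ech-9* was at 28.87, 19.04 and 16.21 RPKM in mutants and at 0.990, 1.91 and 1.52 RPKM in wild-type animals (log2 fold change 3.15, limma adjusted p = 2.68e-04). *ech-1.1* was the fall among 10 hydratase genes tested. Besides *hacd-1*, then, rises in these lists were found at carnitine transfer and hydration.

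**Figure D4:**
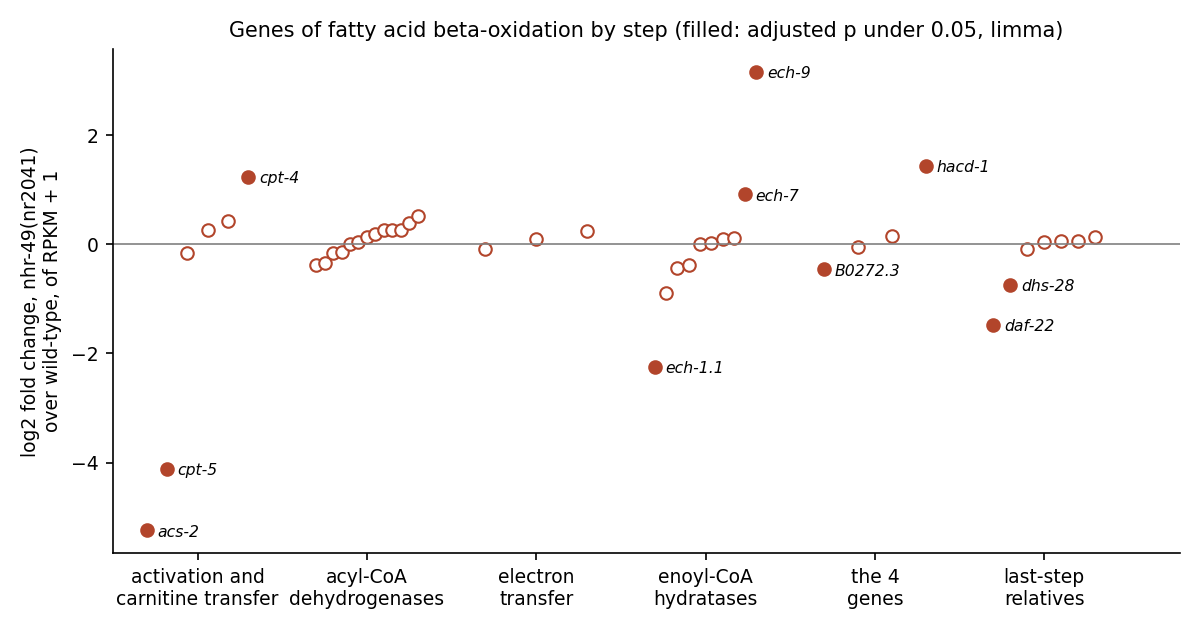
Log2 fold change of RPKM + 1 in *nhr-49(nr2041)* mutants over wild-type animals (vertical axis) for each tested gene of β-oxidation, grouped along the horizontal axis by step, 1 point a gene, filled and named where the limma adjusted p is under 0.05. Changed genes lie on both sides of 0, the 13 acyl-CoA dehydrogenase genes are open and lie between -0.38 and 0.52, and the value of *cpt-5* depends on the pseudocount.

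No change was detected in the nearest protein-coding genes to *hacd-1*, which were both low. Those on either side, *chil-14* at a distance of 3722 bases and *fpn-1.2* at 397 bases, averaged 1.87 ± 0.115 and 1.28 ± 0.361 RPKM in mutants, against 1.63 ± 0.998 and 1.11 ± 0.686 RPKM in wild-type animals (SD, n = 3 each; limma adjusted p = 0.809 and 0.845). Libraries held 17 to 81 reads of *chil-14* and 29 to 93 of *fpn-1.2*. The 95% confidence intervals of their log2 fold changes were -0.50 to 0.92 and -0.44 to 0.73, on a scale that understates change at such levels. By limma voom the log2 fold changes were 0.49 (SE 0.55) and 0.33 (SE 0.45). A rise in either gene is thus not excluded. Next to B0272.3 a neighbour fell as well. B0272.4 lies 1007 bases before B0272.3 on the same strand (chromosome X, 9428431 to 9430424) and was at 10.5, 7.46 and 7.25 RPKM in mutants and at 22.2, 28.8 and 29.9 RPKM in wild-type animals. No mutant library of B0272.4 reached a wild-type one, and the fall was 1.58 in log2 units (SE 0.18, limma adjusted p = 0.0021, between 1.18e-04 and 0.025 in the alternatives). On the other side of B0272.3, the β-tubulin gene *tbb-4* differed by 0.27 in log2 units (limma adjusted p = 0.633). *kat-1* ends 102 bases before T02G5.7, a relative on the same strand. The genes beside B0303.3 (*fli-1* and B0303.4) and *kars-1* beside *kat-1* had log2 fold changes of -0.05, -0.08 and -0.18 and did not pass the test (lowest limma adjusted p = 0.657).

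Genes most like each member in pattern were found by the distance between log2(RPKM + 1) profiles over the 6 libraries, each centred on its own mean. For *hacd-1* they were Y73C8C.4, F49D11.6 and *oac-17*, at distances of 0.221, 0.307 and 0.362. Y73C8C.4 and *oac-17* were low, with means of 0.344 and 0.484 RPKM in wild-type animals and 2.27 and 2.61 RPKM in mutants. At such levels the added 1 shrinks log2 differences, so their likeness to *hacd-1* rests on that scale. All 3 genes had replicate 1 as the highest library in both genotypes, as *hacd-1* did, which their choice by likeness favours. F49D11.6 was at 20.2, 14.8 and 12.9 RPKM in mutants and at 6.78, 5.02 and 3.94 RPKM in wild-type animals. For B0272.3 they were the C-type lectin gene *clec-166*, the enoyl-CoA hydratase family gene *ech-4* and the acyl-CoA dehydrogenase gene *acdh-11*, at distances of 0.0742, 0.118 and 0.124. *ech-4* was at 53.5, 54.2 and 53.3 RPKM in mutants and at 66.6, 72.5 and 70.6 RPKM in wild-type animals (log2 fold change -0.37, limma adjusted p = 0.093). *acdh-11* was at 28.7, 28.5 and 28.9 RPKM in mutants and at 34.7, 40.2 and 38.1 RPKM in wild-type animals (log2 fold change -0.38, limma adjusted p = 0.124). Mutant and wild-type libraries did not overlap for either gene, though neither passed the test. Both were picked for likeness to B0272.3 over the same libraries, so this separation is no independent result. For B0303.3 the 3 nearest were *klc-2*, *vps-36* and *tps-2* (distances 0.0353, 0.0720 and 0.0723), and for *kat-1* they were *aqp-2*, *myo-6* and C01C4.3 (0.0745, 0.0819 and 0.112).

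Among the 7 tissues, the summed level of marker genes separated the genotypes for body wall muscle only. Of single genes tested, 21.4% separated in this way. For body wall muscle, intestine and neuron markers the median log2 fold changes were -0.44, 0.18 and 0.28, against 0.10 for all genes tested. As this last median is above 0, most genes tested had positive fold changes on this scale. The 10 body wall muscle markers summed to 4369, 6486 and 6076 RPKM in mutant replicates 1 to 3. In wild-type animals they summed to 6860 to 7113 RPKM. The lowest sum was that of mutant replicate 1, a library that stood apart. All 10 fold changes were negative, and 0 passed limma's test (1 at an unadjusted p under 0.05, 0 by voom). The 10 intestine markers summed to 6072 to 7688 RPKM in mutants and to 5577 to 6283 RPKM in wild-type animals, with 9 of 10 fold changes positive, and 1 (*mtl-2*) passed limma's test (3 at an unadjusted p under 0.05, 1 by voom). The 10 neuron markers summed to 372 to 499 RPKM in mutants and to 326 to 384 RPKM in wild-type animals, with 10 of 10 positive, and 0 passed (1 at an unadjusted p under 0.05, 0 by voom). Germline markers summed to 320, 574 and 809 RPKM in mutant replicates 1 to 3. In wild-type replicates 1 to 3 they summed to 804, 466.5 and 738 RPKM, so the genotypes overlapped. The lowest germline sum of each genotype was in the library that stood apart, and wild-type replicate 2 also had the lowest sperm sum. The sums overlapped likewise for hypodermis (6198 to 7887 RPKM in mutants, 6521 to 7449 in wild-type animals), pharynx (607 to 900 in mutants, 848 to 1070 in wild-type animals) and sperm (216.4 to 272.0 in mutants, 123 to 281 in wild-type animals), and 0 genes of these 4 lists passed limma's test, reached an unadjusted p under 0.05 or passed voom. The part of these differences in the changes of *hacd-1* and B0272.3 was not tested.

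**Figure D5:**
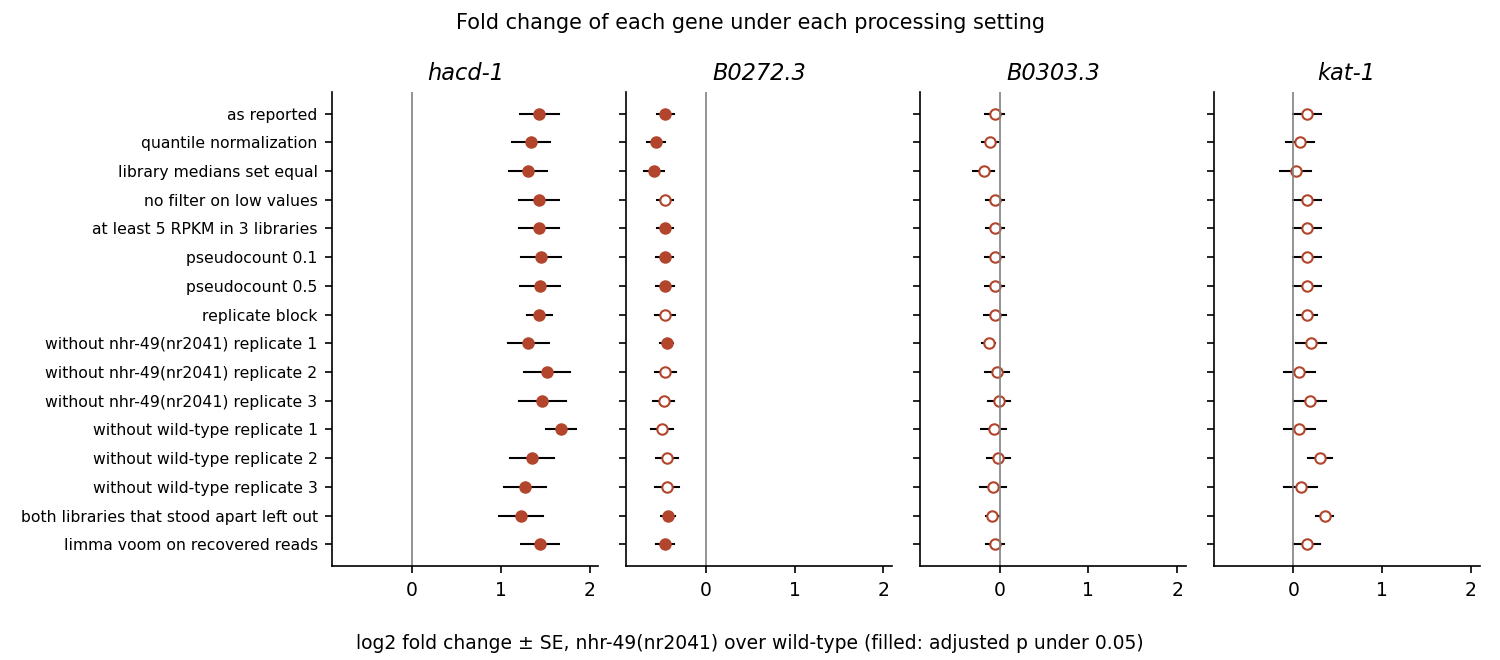
Log2 fold change ± SE in *nhr-49(nr2041)* mutants over wild-type animals (horizontal axes) of each of the 4 genes under the reported setting and 15 alternatives (rows), filled where the adjusted p is under 0.05. *hacd-1* stays between 1.23 and 1.67 and filled throughout, B0272.3 stays between -0.58 and -0.42 and is filled in part, and the thiolase genes are open throughout.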

How the data were processed

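Whole-animal mRNA of 3 *nhr-49(nr2041)* and 3 wild-type libraries was read as paired ends of 150 bp. The deposited values are RPKM, which the authors computed per gene and library in CLC Genomics Workbench 9.5 on genome build WBcel235, per the processing notes. Mapping settings, annotation version and the use of strand in counting were not stated in these sources. Deposited genotype means were used only as a check.

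Since RPKM are not counts, the study's count-based comparison was replaced by limma 3.58.1 (trend and robust, statmod 1.5.0, R 4.3.3) on log2(RPKM + 1) for genes reaching 1 RPKM in 3 or more libraries, with genotype as the only term. A fold change on this scale understates the change of low genes. Whole reads were recovered, within 0.01, for 100.0% of the 19579 genes above 0, and served for depth and for limma voom, an alternative chosen after seeing the data. The gene length used to recover them equalled the annotated exon length for 4.98% of matched genes. For *hacd-1*, B0272.3, B0303.3 and *kat-1* it was 1023, 1055, 1916 and 1385 bases, against annotated lengths of 1022, 1052, 1718 and 1327. Intervals of counts cover counting error only. Coordinates are from Ensembl release 115, also WBcel235. Other steps used Python 3.11.15 and pandas 2.3.3.

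The members, lists and alternatives were chosen with earlier results of these data known. Named genes are the 4 members, all relatives of the last steps, every changed list gene, the nearest protein-coding gene on each side of a member and the 3 genes nearest in profile. *anmt-1* and *ech-1.2* were named after their values were seen, as was *mtl-2*. The fit was tested on simulated data. Alternatives were other normalizations, filters and pseudocounts, a replicate block and left-out libraries. Sequences were not used here.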

Additional observations from a re-analysis of the deposited data

How the results depend on the processing

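The log2 fold changes of the 4 members kept their direction in all 15 alternatives, and *hacd-1*, B0303.3 and *kat-1* also kept their side of the threshold. Leaving out 1 library at a time gave 1.27 to 1.67 for *hacd-1*, -0.50 to -0.44 for B0272.3, -0.12 to -0.01 for B0303.3 and 0.07 to 0.30 for *kat-1*. The call for B0272.3 was also lost with no filter on low values (-0.46, limma adjusted p = 0.053), where more genes were tested. The number of changed genes was 382 to 635 with 1 library left out (577 with all 6; 382 without wild-type replicate 3) and 1300 without the 2 libraries that stood apart. Of the 39 genes on the other β-oxidation lists, 8 changed, 6 to 11 with 1 library left out and 13 without both. The within-library shift of *hacd-1* against B0272.3 ran from 1.73 to 2.20 with 1 library left out, and that of *kat-1* against B0303.3 from 0.09 to 0.32, and to 0.44 without both.

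Correlations over genes of the deviations of same-numbered libraries were -0.33, -0.16 and 0.34 for replicates 1, 2 and 3, so that replicate 3 alone deviated together. Only wild-type replicate 3 correlated best with its own number, so the numbers were not taken as pairs. With replicate number as a block 396 genes changed, and the calls for B0272.3 (-0.46 in log2 units, limma adjusted p = 0.167), *dhs-28* (-0.74, limma adjusted p = 0.0585) and *nhr-49* (-0.65, limma adjusted p = 0.0965) were lost. No other call among the members, the relatives, the changed list genes and the neighbours on each side changed with the block. The block result was not examined for *mtl-2*, *anmt-1*, *ech-1.2* and the genes nearest in profile.

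Small differences of genes that did not pass the test changed sign. With quantile normalization the log2 fold changes of F54C8.1, *ard-1*, *acaa-2*, T02G5.7, *chil-14* and *fpn-1.2* were -0.035, -0.013, -0.047, -0.015, -0.016 and -0.10, and with library medians set equal those of *ard-1*, *acaa-2* and T02G5.7 were -0.062, -0.085 and -0.059. Without both libraries that stood apart, F54C8.1, *chil-14* and *fpn-1.2* were at -0.25, -0.16 and -0.019. With 1 library left out the ranges were -0.21 to 0.33 for F54C8.1, -0.0075 to 0.12 for *ard-1*, -0.036 to 0.16 for *acaa-2*, -0.29 to 0.11 for T02G5.4, -0.037 to 0.15 for T02G5.7, -0.16 to 0.42 for *chil-14* and -0.037 to 0.39 for *fpn-1.2*. The cause was not tested. The planned count test was not run, because the deposited unit is RPKM.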
